A study of Mus musculus with 6 samples.

Results

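NRF2, its inhibitor KEAP1 and 8 genes that NRF2 is known to activate in glutathione, quinone, thioredoxin and NADPH metabolism were followed in mouse bone marrow macrophages on their way to becoming osteoclasts. The genes are Nfe2l2 (which encodes NRF2), Keap1, Nqo1, Gclm, Gclc, Gsta3, Me1, Srxn1, Txnrd1 and Slc7a11. They were taken by symbol, and all 10 were found among the 26699 genes of the files. Every one of the 10 passed the filter on low counts that left 16843 genes for testing.

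The cells were primary bone marrow macrophages from mice aged 8 weeks, expanded in 10 ng/mL M-CSF and then given 30 ng/mL M-CSF with 50 ng/mL RANKL, the cytokine that drives osteoclast formation, for 48 hours. Control cells had the genotype Slc11a2flox/flox, and knockout cells (cKO) had the genotype LysmCre-Slc11a2flox/flox, with 3 libraries of polyadenylated RNA each. Both groups thus carry the floxed alleles of Slc11a2, the gene for the ferrous iron transporter DMT1, and received the same treatment. The control cells carried no Cre, which is expressed from the myeloid lysozyme M locus in the cKO cells, so effects of Cre and of Slc11a2 loss cannot be told apart. The comparison asks how expression in differentiating cells differs between these genotypes.

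NRF2 is a transcription factor whose activity is set mainly by how fast the protein is destroyed. KEAP1, an adaptor of the CUL3 ubiquitin ligase, holds NRF2 and marks it for the proteasome; when cysteines of KEAP1 react with oxidants or electrophiles, NRF2 accumulates, pairs with a small MAF protein and binds antioxidant response elements near its target genes. In osteoclast precursors RANKL signalling uses reactive oxygen species as messengers, and NRF2 is known there as a brake on osteoclast formation. Because the control is at the protein, the transcript level of Nfe2l2 is not a measure of NRF2 activity, which was not measured in these libraries.

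The core of the antioxidant response element can be read in the DNA just ahead of some of these genes. Promoter windows of 300 bases, from 250 before to 50 after a transcription start, were taken from RefSeq on GRCm38.p6, the build called mm10. Of the 10 genes, 9 had at least 1 window, and Gclc had none. They were searched on both strands for TGACNNNGC, where N is any base, and for TGAGTCA, a core that also binds AP-1; the 2 motifs can overlap. Stretches from 150 bases before the start to its first 10 bases are shown for 3 genes that were lower in cKO cells and for Srxn1, which was not. They are written 5′ to 3′ on the strand of the gene, and capitals mark any match.
Gclm (chr3:122245407-122245566, plus strand): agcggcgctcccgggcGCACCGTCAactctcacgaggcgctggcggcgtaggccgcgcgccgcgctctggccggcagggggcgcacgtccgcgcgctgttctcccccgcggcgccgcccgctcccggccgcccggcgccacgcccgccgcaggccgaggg
Gsta3 (chr1:21240435-21240594, plus strand): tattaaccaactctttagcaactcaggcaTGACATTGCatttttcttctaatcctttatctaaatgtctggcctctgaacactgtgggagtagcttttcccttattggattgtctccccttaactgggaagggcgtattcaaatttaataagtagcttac
Me1 (chr9:86695905-86696064, minus strand): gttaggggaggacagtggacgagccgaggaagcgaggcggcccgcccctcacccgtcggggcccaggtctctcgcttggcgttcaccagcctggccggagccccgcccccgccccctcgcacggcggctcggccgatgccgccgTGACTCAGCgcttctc
Srxn1 (chr2:152105374-152105533, plus strand): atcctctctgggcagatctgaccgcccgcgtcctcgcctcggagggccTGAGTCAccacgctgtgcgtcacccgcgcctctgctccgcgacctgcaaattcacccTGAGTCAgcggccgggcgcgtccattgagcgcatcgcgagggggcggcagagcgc

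The match in Me1 holds both motifs at once and begins 6 bases before the start site. A further Me1 window, at a start inside the gene, held neither motif. Srxn1 holds TGAGTCA in 2 places, 102 and 45 bases before its start, and a TGACNNNGC match beyond the stretch shown. The Gclm match lies on the opposite strand. Windows of Nfe2l2 and of an inner start of Txnrd1 also held TGACNNNGC. The other Txnrd1 windows and those of Nqo1, Keap1 and Slc7a11 did not, which says only that these letters are not within those 300 bases. Among all 32851 mouse windows of this length, 12.39% held TGACNNNGC and 5.2% held TGAGTCA. For windows of genes tested here the shares were 14.22% and 4.07%. A match is a description of the sequence and not a bound site.

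Gsta3, Nqo1, Gclm and Me1 were lower in cKO cells, 4 of the 10 genes. The other 6, among them Nfe2l2 and Keap1 themselves, did not pass the test, and none of the 10 was called higher. The test was edgeR's quasi-likelihood F test of 3 against 3 libraries, with Benjamini-Hochberg adjustment over all 16843 genes and a threshold of 0.05. On simulated counts in which each gene had its own spread, this test made more false calls than that threshold allows. With it, 2.42% of all genes tested were called in either direction and 1.06% were called lower. The 10 genes were chosen with earlier results of these data known, so their counts beside such shares are a description. Levels are given as CPM, counts scaled to a common library total with TMM factors, and differences as log2 fold changes of cKO over control with their standard error (SE). The median log2 fold change of the 10 genes was -0.11, beside 0.001 over all genes tested. An unadjusted p under 0.05 was found for 5 of the 10 genes and for 17.2% of all genes. All counts rest on many reads, since the lowest count of any of the 10 genes in any library was 1114.

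**Figure D1:**
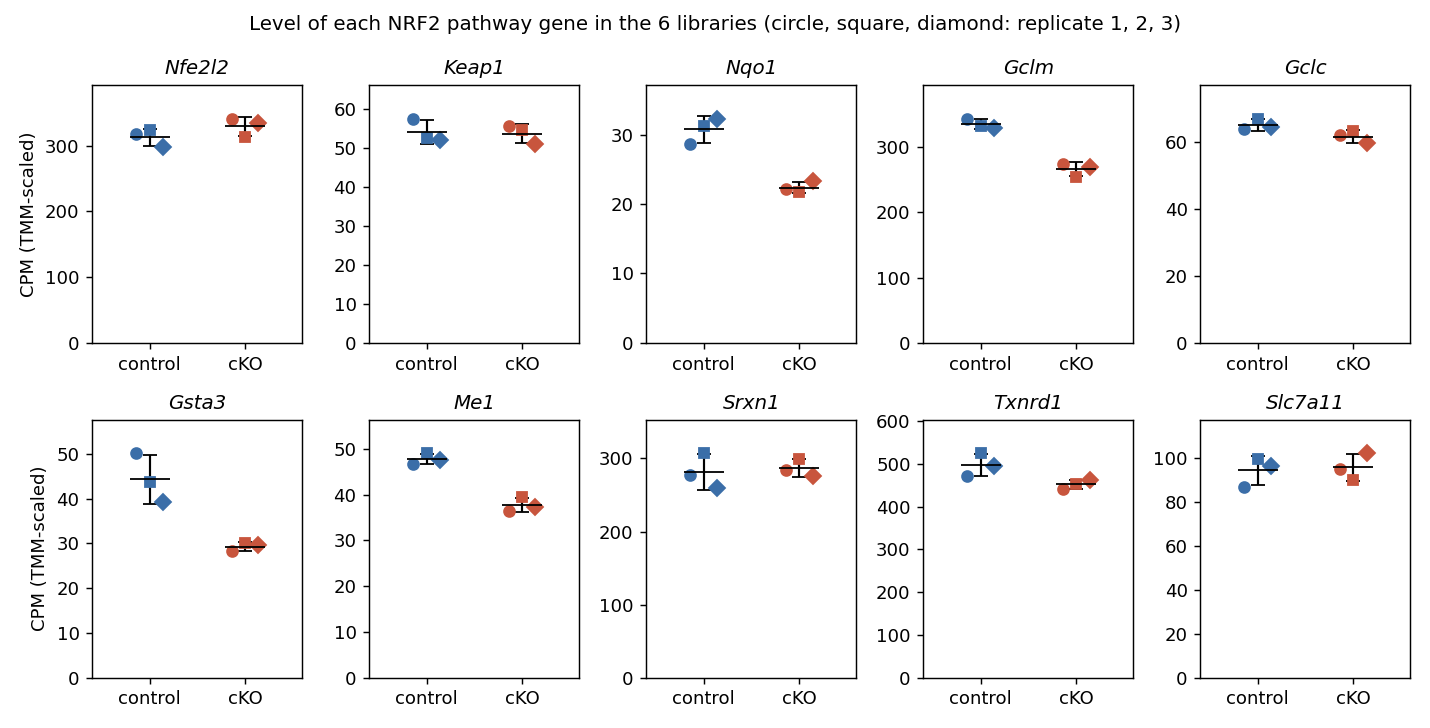
TMM-scaled CPM (vertical axis, from 0) of each of the 10 genes in the 3 control (blue) and 3 cKO (red) libraries; symbols mark the replicate number, and the horizontal bar with whiskers is the mean ± SD. For Nqo1, Gclm, Gsta3 and Me1 the cKO points lie well below the control points, whereas those of Nfe2l2, Keap1, Srxn1 and Slc7a11 overlap.

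Neither the transcription factor nor its inhibitor passed the test at the transcript level. Coordinates here and below are on mm10. Nfe2l2 (ENSMUSG00000015839, chromosome 2, 75675513 to 75704641) measured 317, 323 and 298 CPM in the control libraries (replicates 1, 2, 3) against 341, 313 and 334 CPM in the cKO libraries. The groups overlap, and the log2 fold change was 0.08 with an SE of 0.06 (edgeR adjusted p = 0.563). Keap1 (ENSMUSG00000003308, chromosome 9, 21229730 to 21239361) had control levels of 57.6, 52.6 and 52.0 CPM beside cKO levels of 55.6, 54.6 and 51.0 CPM. Its 6 values interleave, and its log2 fold change of -0.01 (SE 0.07, adjusted p = 0.967) changed sign with the scaling, the filter and the library left out.

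Gsta3, an alpha-class glutathione transferase that conjugates glutathione to electrophiles, showed the greatest difference among the 10 genes. The gene (ENSMUSG00000025934, chromosome 1, 21240589 to 21265661) gave 50.1, 43.6 and 39.2 CPM across the controls against 28.2, 30.0 and 29.6 CPM across the cKO libraries. The control libraries were spread widely and the cKO libraries lay close together, without overlap. The mean fell by 33.9%, a log2 fold change of -0.60 with an SE of 0.09 (edgeR adjusted p = 0.00588). The related Gsta4 reached at most 1.38 CPM and Gsta1 at most 0.0698 CPM, and 0.27% of the 50-base words in Gsta3 transcripts occur in transcripts of other genes. The call of Gsta3 was lost without cKO replicate 1 (adjusted p = 0.0663) and held in the other 13 alternatives.

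Glutamate-cysteine ligase makes the dipeptide from which glutathione is built, and 1 of its 2 subunits was called lower. Gclm, the modifier subunit that raises the activity of the enzyme (ENSMUSG00000028124, chromosome 3, 122245557 to 122270732), had control levels of 344, 333 and 330.3 CPM beside cKO levels of 275, 254 and 269.8 CPM. The highest cKO library was well under the lowest control, and the mean fell by 20.7% (log2 fold change -0.33, SE 0.06, edgeR adjusted p = 0.0114). Gclc, the catalytic subunit (ENSMUSG00000032350, chromosome 9, 77754535 to 77794485), gave 63.8, 66.9 and 64.3 CPM across the controls against 61.9, 63.2 and 59.5 CPM across the cKO libraries. Its groups just failed to touch, but the difference did not pass the test (log2 fold change -0.08, SE 0.06, adjusted p = 0.546).

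Per length, in FPKM, Gclm transcripts outnumbered Gclc transcripts by 3.23, 2.98 and 3.07 to 1 in control replicates and by 2.66, 2.40 and 2.71 to 1 in cKO replicates. The ratio does not depend on library scaling. It was lower in all 3 cKO libraries, with a log2 difference of -0.26 and p = 0.1 in a two-sided exact permutation test, the smallest p that 3 against 3 libraries allow. The ratio uses the same counts as the Gclm and Gclc results above and adds no independent support. The call of Gclm was lost without control replicate 1 (edgeR adjusted p = 0.0658) or cKO replicate 1 (0.0663).

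Some reads at Gclm may belong to neighbours or copies, because no source used here says whether counting used strand. The antisense gene Gm17494 overlaps Gclm. It had control levels of 60.7, 45.9 and 62.9 CPM beside cKO levels of 54.8, 40.8 and 20.4 CPM. How reads were divided between Gm17494 and Gclm was not tested. The pseudogene Gm6061 also lies within Gclm at no more than 0.501 CPM, and 3.92% of the 50-base words of Gclm transcripts occur in other genes, Ppia among them. Ppia itself ranged from 167 to 403 CPM with no order by genotype.

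Slc7a11, the cystine-glutamate antiporter that brings in the cystine needed for glutathione, did not pass the test. The gene (ENSMUSG00000027737, chromosome 3, 49892526 to 50443614) gave 86.7, 99.6 and 96.3 CPM across the controls against 94.9, 89.9 and 102 CPM across the cKO libraries, with the lowest value in a control and the highest in a cKO library. Its log2 fold change was 0.02 (SE 0.07, edgeR adjusted p = 0.906), and the sign changed without control replicate 1 or cKO replicate 3 and with the length trend removed. Slc7a11 is also a target of ATF4, the factor of the integrated stress response. Of 13 genes for ATF4 and its targets, 0 rose and 0 fell in edgeR, and the median was 0.07. An unadjusted p under 0.05 was found for 3 of them, beside 17.2% of all genes tested. DESeq2 and limma-voom each called 1 of them lower, Atf4 itself. Atf4 was at -0.28 (SE 0.07, adjusted p = 0.0683), Atf3 at 0.27 (SE 0.11, 0.259) and the serine synthesis gene Psat1 at 0.25 (SE 0.11, 0.271).

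Nqo1, the quinone reductase often read as a gauge of NRF2 output, was lower in every cKO library. The gene (ENSMUSG00000003849, chromosome 8, 107388225 to 107403206) had control levels of 28.6, 31.3 and 32.3 CPM beside cKO levels of 22.1, 21.7 and 23.3 CPM. The cKO values form a narrow band below the control values, and the mean fell by 27.2% (log2 fold change -0.46, SE 0.08, edgeR adjusted p = 0.0138). The libraries carried a trend over transcript length. The median log2 fold change was -0.1167 in the shortest of 10 equal bins of well-expressed genes and 0.0483 in the longest. Length was the one implied by counts and FPKM, which can exceed that of the main transcript where a gene has several. By it Nqo1, at 1789.3 bases, was the only one of the 10 genes in the shortest bin. Gsta3, whose annotation, like that of some others of the 10, includes a retained intron, stood at 5005.9 bases. For Gsta3 the trend was removed at that length, which corrects too little if its main transcript is shorter. With that trend removed the log2 fold change of Nqo1 was -0.35 (edgeR adjusted p = 0.0668). The call was also lost without control replicate 2 (0.0605), control replicate 3 (0.0851) or cKO replicate 1 (0.108).

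Me1, the cytosolic malic enzyme, turns malate into pyruvate and yields NADPH, the electron donor for glutathione and thioredoxin reductases. The gene (ENSMUSG00000032418, chromosome 9, 86581371 to 86695953) gave 46.7, 49.0 and 47.5 CPM across the controls against 36.4, 39.4 and 37.3 CPM across the cKO libraries. Replicates lay within a few CPM of each other and the groups did not overlap, and the mean fell by 21.0% (log2 fold change -0.34, SE 0.07, edgeR adjusted p = 0.0231). The call was lost in 4 of 14 alternatives, as was that of Nqo1: without control replicate 1 (0.0768), 2 (0.0725) or 3 (0.0965) and without cKO replicate 1 (0.147). The pseudogenes Gm7049 and Gm7329 share 22.94% of the 50-base words of Me1 transcripts. They stood at no more than 0.558 and 0.288 CPM, which does not show how reads common to them and Me1 were assigned.

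Neither of the 2 thioredoxin-linked targets passed the test. Srxn1, sulfiredoxin, which repairs overoxidised peroxiredoxins (ENSMUSG00000032802, chromosome 2, 152105516 to 152109322), had control levels of 278, 307 and 259 CPM beside cKO levels of 284, 299.7 and 276 CPM. Control libraries held both its highest and its lowest value, with a log2 fold change of 0.02 (SE 0.07, edgeR adjusted p = 0.897) whose sign changed without control replicate 3 or cKO replicate 2. Txnrd1, the cytosolic thioredoxin reductase, a selenoprotein (ENSMUSG00000020250, chromosome 10, 82833951 to 82897712), gave 472, 525 and 496 CPM across the controls against 442, 454 and 463 CPM across the cKO libraries. The groups lay close without overlap, and the log2 fold change of -0.14 (SE 0.06) had an unadjusted p of 0.0411 and an edgeR adjusted p of 0.266. In all, 6 of the 10 genes had groups that did not overlap, each with the cKO libraries lower, against 11.4% of all genes tested, or 22.5% with either direction counted.

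**Figure D2:**
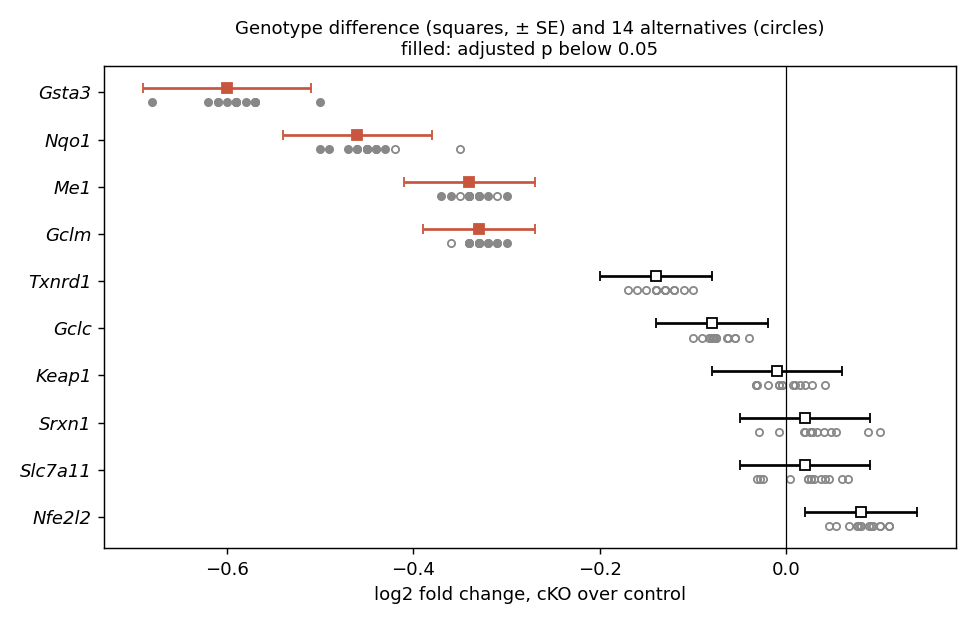
Log2 fold change of cKO over control (horizontal axis) for each of the 10 genes: squares with whiskers are the edgeR estimate ± SE, and circles are the 14 alternative analyses, filled where the adjusted p was below 0.05. Gsta3, Nqo1, Me1 and Gclm stay left of zero in all alternatives, from -0.68 to -0.30, with open circles where the call was lost.

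Within the control cells the 10 transcripts spanned a wide range of levels per length, where length is the one behind the authors' FPKM. In FPKM, Srxn1 was the most abundant at 86.2 ± 7.26 (mean ± SD, n = 3), followed by Nfe2l2 at 71.1 ± 2.70, Txnrd1 at 60.7 ± 3.27 and Gclm at 46.1 ± 0.837. A lower tier held Nqo1 at 17.1 ± 1.12, Gclc at 14.9 ± 0.372, Me1 at 10.7 ± 0.265, Keap1 at 9.94 ± 0.540, Gsta3 at 8.80 ± 1.06 and Slc7a11 at 5.84 ± 0.427. Me1 and Keap1 overlapped between libraries, as did Keap1 and Gsta3; the other neighbours in this order did not. In cKO cells Keap1 at 9.95 ± 0.452 FPKM stood above Me1 at 8.53 ± 0.453, and Gsta3 at 5.86 ± 0.254 overlapped Slc7a11 at 5.98 ± 0.365. Genes that fell stood at ranks 4, 5, 7 and 9 of this control order. The order depends on those lengths, which can exceed that of the main transcript. In CPM, which takes no account of length, Slc7a11 at 94.2 and Gsta3 at 44.3 stood above Nqo1 at 30.7 in control cells.

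The wider pathway was described with 7 lists of other genes, sorted by function, of which 96 of 104 could be tested. The lists were chosen with earlier results of these data known, so their counts are a description. Of these 96 genes, 0 rose and 7 fell, 67 had a negative log2 fold change, 28 had an unadjusted p under 0.05, and the median was -0.07. Among all genes tested 1.06% were called lower, 49.6% were negative and 17.2% had an unadjusted p under 0.05. The negative counts and medians were not corrected for the length trend. The 7 calls were Dpp3, Esd, Gstm2, Txn1, Prdx6, Taldo1 and Akr1b8, spread over 6 of the 7 lists. None of the 7 was called without control replicate 1 or without cKO replicate 1, where 0.149% and 0.116% of all genes were called lower. The count was 14 with DESeq2 and 11 with limma-voom, all lower, beside 3.19% and 2.1% of all genes called lower by those tools. With the length trend removed it was 5 lower and 2 higher, the latter being Gpx1 and Idh1, beside 0.647% of all genes called lower and 1.49% higher.

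Regulators of NRF2 held 1 call among 12 tested genes, with a median of -0.05. Dpp3, a peptidase that competes with NRF2 for KEAP1, fell from 76.5 ± 1.36 to 64.5 ± 0.810 CPM (mean ± SD, n = 3; log2 fold change -0.25, SE 0.06, edgeR adjusted p = 0.0401), a call lost when any 1 of the 6 libraries was left out and with upper-quartile scaling (0.0558). Sqstm1, the autophagy adaptor p62 that sequesters KEAP1, was at -0.16 (SE 0.07, 0.263), and the small MAF gene Mafk at 0.10 (SE 0.09, 0.618). Bach1, the heme-binding repressor that competes with NRF2 at antioxidant response elements, ranged from 160 to 169.5 CPM over all 6 libraries with a log2 fold change of 0.01.

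Genes that make, turn over or export glutathione held no call among 9 tested, with a median of -0.11. Of the 9, 2 had an unadjusted p under 0.05, beside 17.2% of all genes tested. The exporter gene Abcc1 was at -0.19 (SE 0.06, edgeR adjusted p = 0.135), the peptidase gene Ggt5 at -0.34 (SE 0.15, 0.264) and the cysteine-producing Cth at 0.33 (SE 0.20, 0.418). Abcc1 was called lower with the length trend removed and with DESeq2, and limma-voom called 0 of the 9. Of 13 other genes of glutathione use and recycling, not all of them for redox enzymes, 1 fell, and the median was -0.14. Esd, which releases glutathione from its formyl adduct, fell from 487 ± 4.61 to 413 ± 18.8 CPM (adjusted p = 0.0493, and lost with RLE or upper-quartile scaling, with the length trend removed and in 5 of 6 fits with a library left out). The glutaredoxin gene Glrx5 was at -0.35 (SE 0.11, 0.142) and the glutathione peroxidase gene Gpx3 at 0.40 (SE 0.13, 0.15).

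Among 20 tested glutathione transferase genes other than Gsta3, 1 fell and 10 were negative, with a median of 0.01. Gstm2, of the mu class, fell from 27.5 ± 2.34 to 19.0 ± 2.44 CPM (log2 fold change -0.53, SE 0.11, edgeR adjusted p = 0.0266), a call that failed in 4 of 6 fits with a library left out (0.127, 0.0812 and 0.0645 without control replicates 1, 2 and 3, and 0.173 without cKO replicate 1). Its abundant relative Gstm1 stood at 341 ± 25.0 and 283 ± 16.2 CPM (-0.27, SE 0.07, 0.0618), and Mgst3, a microsomal transferase, was at -0.41 (SE 0.11, 0.0889). The mu-class genes lie side by side and are alike in sequence, so the division of reads among them is uncertain.

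Of 15 thioredoxin and peroxiredoxin genes, 2 fell and the median was -0.05. Prdx6, a peroxiredoxin that draws on glutathione, fell from 87.9 ± 1.30 to 69.1 ± 3.40 CPM (log2 fold change -0.35, SE 0.06, edgeR adjusted p = 0.0115), and Txn1, the cytosolic thioredoxin that TXNRD1 reduces, fell from 145 ± 2.50 to 118 ± 8.76 CPM (adjusted p = 0.0302). Prdx2 was at -0.24 (SE 0.07, 0.0881). The Prdx6 call was lost without any of the control libraries in turn and without cKO replicate 1 (adjusted p from 0.051 to 0.0688), and that of Txn1 was lost in 5 of 6 such fits and with the length trend removed (0.111).

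Of 7 other enzymes of NADPH supply, 1 fell and the median was -0.05. Taldo1, the transaldolase of the pentose phosphate pathway, fell from 414 ± 17.8 to 344 ± 21.6 CPM (edgeR adjusted p = 0.0496, a call lost under the same settings as that of Esd), whereas Idh1 was at 0.19 (SE 0.07, 0.18) and the mitochondrial malic enzyme gene Me2 at -0.12 (SE 0.07, 0.402). Of 20 further genes known as NRF2 targets, 1 fell, 17 were negative and the median was -0.13. Akr1b8, an aldo-keto reductase, fell from 109 ± 2.27 to 84.5 ± 5.63 CPM (log2 fold change -0.36, SE 0.06, edgeR adjusted p = 0.0115), a call lost without control replicate 1 (0.0711) or cKO replicate 1 (0.102). The biliverdin reductase gene Blvra was at -0.25 (SE 0.07, 0.0982) and the ferritin light chain gene Ftl1 at -0.25 (SE 0.08, 0.133).

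**Figure D3:**
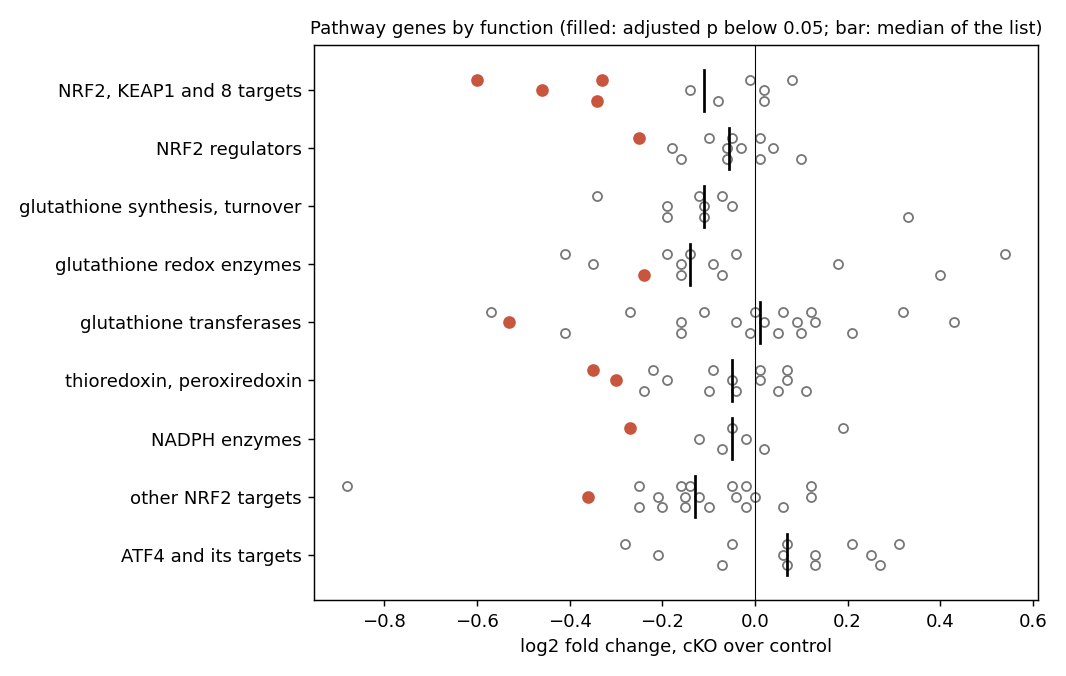
Log2 fold change of cKO over control (horizontal axis) for each tested gene of the 10 and of the other lists (rows); filled red points had an edgeR adjusted p below 0.05 and vertical bars are list medians. Filled points lie only on the left, 4 in the top row and 7 below it, and all list medians lie between -0.14 and 0.07.

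By their profile over the 6 libraries, Me1 and Gclm were the closest to Nqo1 among the 10 genes. Likeness was measured as the root mean square difference in log2 CPM, each gene centred on its own mean, over 10430 other genes with a mean of at least 5 CPM, where the median was 0.245. Me1 ranked 58th at 0.090 and Gclm 86th at 0.098, while Txnrd1 was at 0.167, Gsta3 at 0.173, Gclc at 0.202, Slc7a11 at 0.242, Keap1 at 0.254, Srxn1 at 0.268 and Nfe2l2 at 0.279. The genes outside the 10 that came closest were Spry2, an inhibitor of receptor tyrosine kinase signalling, at 0.023, the lectin gene Clec4a2 at 0.040, the mitochondrial pyruvate carrier gene Mpc2 at 0.049, Ssna1 at 0.054 and the caveolin gene Cav1 at 0.056. Of these, Clec4a2 and Cav1 were called lower in cKO cells. The distance depends in large part on the genotype difference itself. Genes with a log2 fold change near that of Nqo1 thus rank close, and the ranking is no support separate from the calls.

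Libraries and other cell types were checked beside these results. Total counts ranged from 49720701 to 57797282 per library. Over all genes, 229 were called higher and 178 lower, and the split was 265 to 131 with upper-quartile scaling and 251 to 109 with the length trend removed. Slc11a2 was lower in every cKO library, at 78.3 to 87.4 against 109.6 to 119 CPM, and so was Lyz2, whose locus carries Cre, at 7708 to 7892 against 16032 to 18915 CPM. No label says that the libraries came from separate mice or cultures; the spread behind each p-value is that among these 6 libraries and could be technical.

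Macrophage genes were abundant in every library, the 8 markers summing to 7295 to 7840 CPM in control and 7007 to 7517 CPM in cKO cells. None of the 8 was called by edgeR or limma-voom, 2 had an unadjusted p under 0.05, and DESeq2 called 1, Mertk, higher. Mertk was at 0.23 (edgeR adjusted p = 0.118, groups not overlapping), Mrc1 at -0.13 (0.26) and Adgre1 at -0.12 (0.322). The 10 osteoclast markers summed to 11787 to 15309 CPM in control and 8535 to 12212 CPM in cKO cells. Of these, 0 were called by edgeR, DESeq2 or limma-voom, although 3 had an unadjusted p under 0.05. Those 3 were Acp5 at -0.56 (edgeR adjusted p = 0.125), Mmp9 at -0.45 (0.248) and Ctsk at -0.40 (0.288). All 10 had a negative log2 fold change, with a median of -0.39. Over all genes tested 49.6% were negative, 17.2% had an unadjusted p under 0.05 and the median was 0.001. Acp5 was below every control library in all 3 cKO libraries, at 1751, 1760 and 2401 CPM. Relative to the control mean, the mean log2 level of the osteoclast markers was -0.45, -0.59 and -0.05 in cKO replicates 1 to 3, and that of Nqo1, Gclm, Gsta3 and Me1 was -0.45, -0.44 and -0.41. Those 4 genes were chosen by their calls, which favours even values over the cKO libraries, so the 2 profiles are given as a description.

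Some markers of neutrophils were higher in cKO cells. The 11 listed in the files summed to 201 to 232 CPM in control and 268 to 302 CPM in cKO cells without overlap. Mmp8, which was not called and whose groups overlap, made up most of that sum at 175 to 209 CPM in control and 201 to 247 CPM in cKO cells. Without it the other 10 summed to 23.2 to 30.7 CPM in control and 51.6 to 66.8 CPM in cKO cells. Of 10 tested markers 4 were called higher (Ngp, Ltf, S100a8 and S100a9), beside 229 of all 16843 genes tested. A further 3 had a negative log2 fold change without a call. The negative ones were Prtn3 (-1.48), Mpo (-0.82) and Cebpe (-0.51), while Camp (1.56) and Lcn2 (0.65) were positive without a call. Elane, whose mean was lower in cKO cells, was not tested. Elane, Mpo, Prtn3, Camp and Cebpe stayed at or below 1.17 CPM. Stromal markers summed to 3418 to 3989 CPM in control and 3220 to 5163 CPM in cKO cells, overlapping. The type I collagen gene Col1a1 was at 1749 CPM or more in every library. Of 6 tested, 0 were called by edgeR and 3 had an unadjusted p under 0.05, beside 17.2% of all genes tested. DESeq2 and limma-voom each called 1, Pdgfrb, higher. No log2 fold change of the 6 was negative, and the median was 0.38. Pdgfrb was at 0.35 (edgeR adjusted p = 0.0768), Dcn at 1.21 (0.143) and Col3a1 at 0.43 (0.25). Erythroid, B cell and T or NK cell markers summed to at most 1.36, 14.6 and 3.73 CPM. The part of osteoclast, macrophage, neutrophil or stromal RNA in the lower levels of Nqo1, Gclm, Gsta3 and Me1 was not tested, and in bulk RNA fewer cells of a type and less RNA per cell cannot be told apart.

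**Figure D4:**
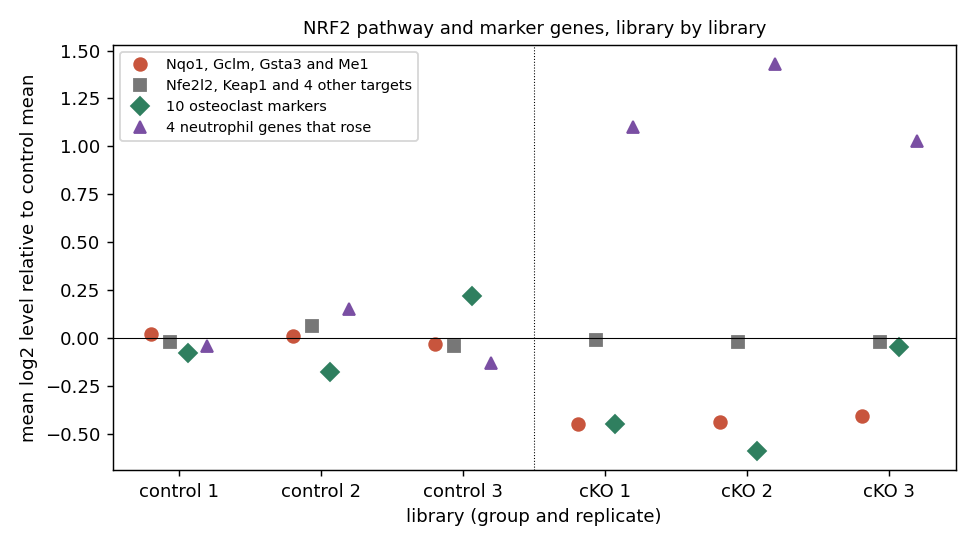
Mean log2 level relative to the control mean (vertical axis) in each library (horizontal axis) for Nqo1, Gclm, Gsta3 and Me1 (circles), the 6 other NRF2 pathway genes (squares), 10 osteoclast markers (diamonds) and 4 neutrophil genes that rose (triangles). The circles sit between -0.45 and -0.41 in all 3 cKO libraries, and the diamonds at -0.45, -0.59 and -0.05.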

How the data were processed

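Each deposited file gives 1 library's raw count of reads for every gene, without normalization, beside an FPKM column that the authors derived, as its header shows (units per the file headers). Trimming with cutadapt 1.9 and the build mm10 appear in the submitters' processing notes. No source used here names the aligner, the counter, the annotation or whether counting used strand. The labels' protocols describe oligo(dT) selection and second strands marked with dUTP.

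Counts were analysed with edgeR 4.0.16 in R 4.3.3: filterByExpr (minimum count 10, minimum total 15), TMM scaling, and a robust quasi-likelihood F test of 3 control against 3 cKO libraries. SE is the log2 fold change divided by the square root of F. The test was tried on simulated data: its share of false calls was near the threshold when spread followed the trend over expression, and above it when each gene had its own spread. FPKM served only to compare levels between genes and to derive transcript length. A read was worth 0.0173 to 0.0201 CPM.

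Alternatives were DESeq2 1.42.0, limma 3.58.1 (voom with sample weights), other scalings and filters, a replicate block, removal of the length trend, and leaving out each library. All 10 genes are named, with called genes of each list, filled up to 3 by smallest raw p; Bach1, Gsta1, Gsta4, Col1a1, the remaining neutrophil markers and overlapping or similar genes were added for context after their values were seen. The genes and lists were chosen with earlier results of these data known.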

Additional observations from a re-analysis of the deposited data

How the results depend on the processing

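Over 14 alternatives, the log2 fold changes of Gsta3, Nqo1, Gclm and Me1 kept their negative sign, and the number of the 10 genes called was 4 in all but the length-corrected fit (3) and the fits leaving out a library (0 to 4, with 0 without cKO replicate 1). Over all genes the count of 407 became 874 with DESeq2, 704 with limma-voom, 673 with the replicate block, and 59 to 624 with a library left out. For the other pathway genes the count of 7 became 14 with DESeq2, 11 with limma-voom, 4 with upper-quartile scaling, and 0 to 6 with a library left out. The cause of these shifts was not tested. Signs turned only in 3 uncalled genes. Keap1 became positive with upper-quartile scaling (0.015), the filter of 1 CPM in 3 libraries (0.007), the length trend removed (0.009), limma-voom (0.020), without control replicate 1 (0.042) and without cKO replicate 3 (0.028). Slc7a11 became negative with the length trend removed (-0.025), without control replicate 1 (-0.031) and without cKO replicate 3 (-0.028). Srxn1 became negative without control replicate 3 (-0.029) and without cKO replicate 2 (-0.008). With a library left out, Keap1 ranged from -0.032 to 0.042, Slc7a11 from -0.031 to 0.066 and Srxn1 from -0.029 to 0.088.

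Replicate numbers are shared between genotypes, but same-numbered libraries deviated together only weakly, with correlations of 0.147, 0.08 and 0.089 across genes, so the numbers were not taken to pair the samples; each cKO library did correlate best with its own number. The replicate block kept the count at 4 of the 10 genes, gave 9 other pathway genes and split the 673 calls into 316 higher and 357 lower.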
